A study of Mus musculus with 16 samples.

Results

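The genes described here encode the nuclear subunits of oxidative phosphorylation, followed in microglia sorted from mouse retina before and after optic nerve crush. They are the protein-coding rows of the expression table whose symbols begin with Ndufa, Ndufb, Ndufc, Ndufs or Ndufv and a digit, with Uqcr, with Cox4 to Cox8 or with Atp5, plus Sdha to Sdhd. This rule gave 86 rows of the 55385 in the table, with 38 in complex I, 4 in complex II, 8 in complex III, 18 in complex IV and 18 in complex V. Atp5o has 2 rows, so the 86 rows carry 85 names. Symbols place Ndufa4 in complex I, although its protein is known as a subunit of complex IV, and they leave out Cyc1, the cytochrome c1 of complex III.

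The cells were sorted for EGFP from Iba1-EGFP mice, in which the promoter of Iba1 (Aif1), a gene of microglia and other macrophages, drives the fluorescent protein. The 4 groups were untreated retina (day 0, mice 15 weeks old) and retina at day 2 (13 weeks), day 4 (13 weeks) and day 7 (16 weeks) after the crush, an injury to the axons of retinal ganglion cells. All groups carry the Iba1-EGFP allele, and age cannot be told apart from day except between days 2 and 4. Each group has 4 libraries. Whether each library is a different animal is not stated, so the p-values rest on a spread between libraries that may be technical only. The titles of day 2 replicates 3 and 4 begin with F in place of M, a letter that the labels do not explain.

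Oxidative phosphorylation makes most of the ATP of resting cells. Complex I takes electrons from NADH and complex II from succinate. Complex III passes them through cytochrome c to complex IV, which reduces oxygen, and complexes I, III and IV pump protons whose return drives the ATP synthase, complex V. Most subunits are made from nuclear genes, and a small core of complexes I, III, IV and V is made from mitochondrial DNA. Activated macrophages and microglia are known to shift between respiration and glycolysis, depending on the stimulus.

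The libraries held 8647276 to 15708302 recovered reads, with a median of 902 to 2301 reads per tested member. Levels are given as FPKM, read counts scaled to gene length and library size. The 9 microglia markers summed to 2460 to 10184 FPKM at day 0, at day 2 to 5288 to 10297 FPKM, at day 4 to 4846 to 6314 FPKM and at day 7 to 3929 to 6339 FPKM, so markers of the labelled cell type were high in every group. RNA of other retinal cells was present too. The 8 rod markers summed to 2079 to 10330 FPKM at day 0, 1545 to 5576 FPKM at day 2, 1662 to 4438 FPKM at day 4 and 3404 to 6142 FPKM at day 7. At days 0, 2, 4 and 7 the mean microglia sums were 6905, 8278, 5583 and 5035 FPKM. The mean rod sums were 4826, 3640, 2716 and 4847 FPKM. Day 0 replicate 1 held both the lowest microglia sum, 2460 FPKM, and the highest rod sum, 10330 FPKM. All 37 mitochondrial genes were listed at 0, so only the nuclear part of the system could be followed. In bulk RNA, fewer cells of a type and less RNA per cell cannot be told apart.

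The members were abundant at all times. The median of their mean levels over the 16 libraries was 88.0 FPKM, against 5.16 FPKM for all 14795 genes tested, those that reached 1 FPKM in 4 or more libraries. Of the 86 rows, 82 passed this filter. The 4 that did not are forms known from other tissues or conditions: Cox7b2 and Cox8c of testis, Cox8b of heart and muscle, and Ndufa4l2 of low oxygen. Their highest single values were 14.5, 0.556, 1.16 and 10.1 FPKM. The highest member of complex I was Ndufa1, a small membrane subunit, at 451 FPKM, and the lowest was Ndufb2 at 5.54 FPKM. In complex II these were Sdhd and Sdhc, the membrane anchors, at 256 and 38.3 FPKM. In complex III they were Uqcrb, a ubiquinone-binding subunit, at 282 FPKM and Uqcrc2, a core protein, at 40.4 FPKM. Cox8a reached 536 FPKM in complex IV, where Cox7a1, the muscle form of COX7A, had 1.90 FPKM. The catalytic β subunit Atp5b led complex V with 321 FPKM, and Atp5l, subunit g, was lowest with 8.08 FPKM. Genes near-identical to a part of Atp5l held 359% as many reads as Atp5l itself, and those of Ndufb2 227%. The levels of Atp5l and Ndufb2, and so their lowest ranks, are therefore uncertain.

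The share of all reads that fell in the 86 rows was higher at day 4 than at day 0. It was 1.16, 1.13, 1.11 and 1.13% in the 4 libraries of day 0 (mean 1.13% ± 0.0228, SD, n = 4). At day 2 it was 1.44, 1.42, 1.33 and 1.11%, and at day 4 it was 1.65, 1.87, 1.79 and 1.603%. All 4 libraries of day 4 stood above all of days 0 and 2. Day 7 was spread over 1.295, 1.199, 1.42 and 1.91%, and its replicate 4 had the highest share of all 16 libraries. Complex V took the largest part, with 0.390% ± 0.0338 of reads at day 0 and 0.623% ± 0.0672 at day 4 (SD, n = 4). Complex I went from 0.364% ± 0.0250 to 0.518% ± 0.0281 over the same days (SD, n = 4).

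**Figure D1:**
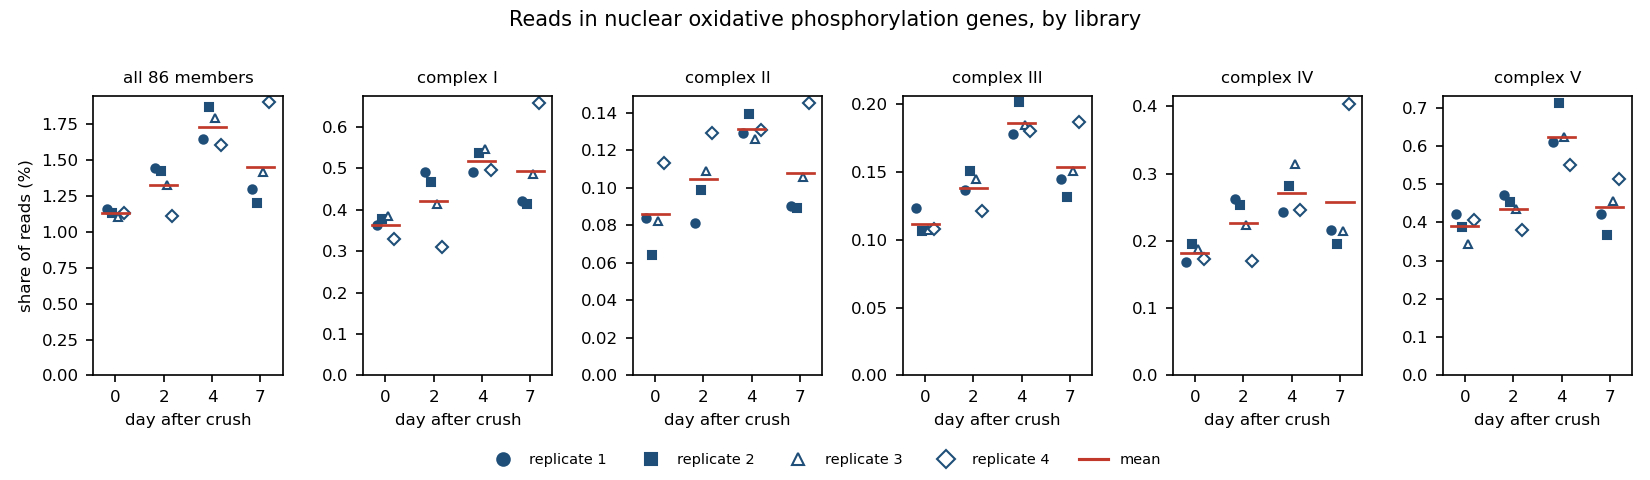
Share of reads (%) in all 86 rows and in the rows of each complex, against the day after crush. Each point is 1 library (filled for replicates 1 and 2, open for 3 and 4) and each red line the mean of 4. For all 86 rows the day 4 libraries lie between 1.603 and 1.87%, above all libraries of days 0 and 2, while day 7 replicate 4 stands at 1.91%.

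Among the 82 tested members, the mean level was highest at day 4 in 54, at day 7 in 25, at day 2 in 1 and at day 0 in 2. The lowest mean was at day 0 in 60. These counts were not taken for other genes. In genes whose mean reached 20 FPKM the median log2 change was 0.54 from day 0 to day 4, against 0.67 in the members. From day 4 to day 7 it was -0.41 in such genes and -0.23 in the members, so a peak at day 4 is not particular to the members. Single libraries weighed on this picture: day 7 replicate 4 held the highest value of 32 members, and day 2 replicate 4 the lowest of 20.

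**Figure D2:**
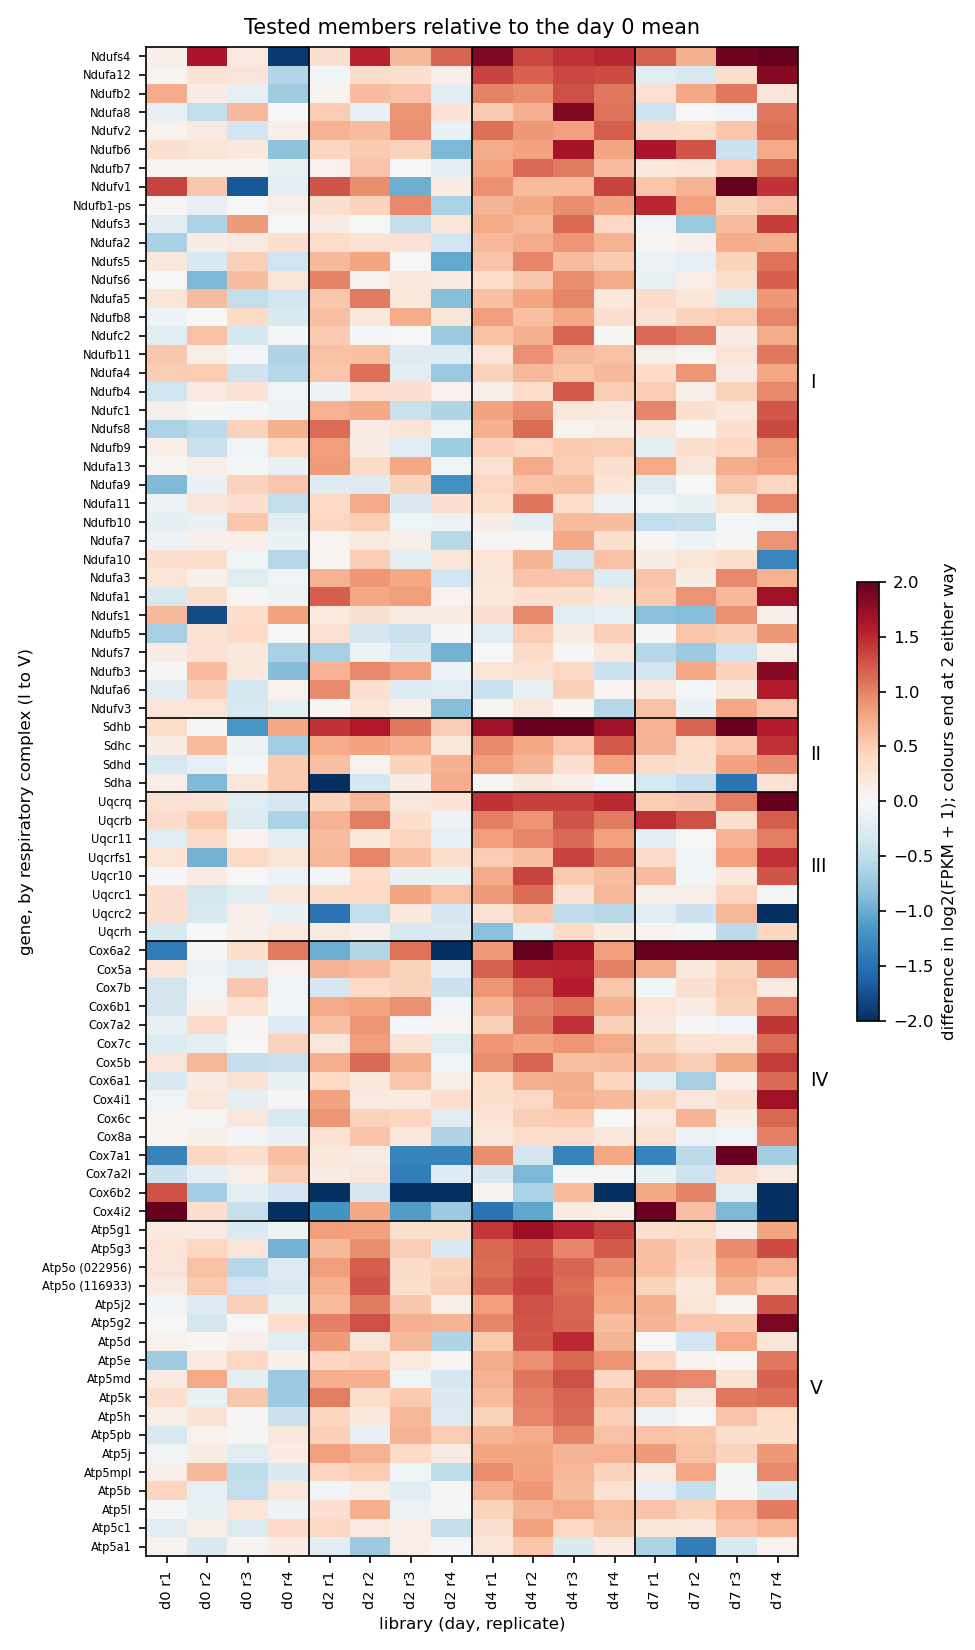
Difference of each tested member but 1 from its day 0 mean, in log2(FPKM + 1), for 16 libraries (columns, d for day and r for replicate) and 5 complexes (rows, ordered by the day 4 change within a complex). Red is higher and blue lower, and colours end at a difference of 2. The 4 day 4 columns are mostly red, and day 7 replicate 4 is redder than the other day 7 libraries.

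The comparison of day 4 with day 0 addresses the state of the microglia 4 days into the injury. Of the 82 tested members, 12 rose and 0 fell (limma on log2(FPKM + 1) with batch as a covariate, Benjamini-Hochberg adjustment over all 14795 genes, adjusted p under 0.05). In all genes tested, 4.62% were called higher and 0.716% lower, against 14.6% of the members higher. At an unadjusted p under 0.05, 43 members were higher and 0 lower, against 15.1% and 5.79% of all genes. The background depends on level, because members are abundant: among the 3137 genes whose mean reached 20 FPKM, a limit chosen after seeing the data, 14.7% were called higher, against 12 of 75 members (16%) at that level. The members' share of calls was thus near that of other abundant genes. At an unadjusted p under 0.05, 1131 of those 3137 genes were higher and 139 lower, against 41 and 0 of the 75 members.

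The code in the titles, whose first digits gave the 2 batches, is the same for days 0 and 4 in batch 1 but differs between them in batch 2. With the full code as the batch term 1 member was called, and the member median was 0.48 against 0.21 for all genes.

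The whole set was also compared without a threshold. The day 4 change was above 0 in 74 of 82 members, against 56% of all genes tested and 75.2% of those with at least 20 FPKM. Its median was 0.67 for the members and 0.16 for all genes on the log2 scale. At that level the medians were 0.71 for the members and 0.54 for all such genes. The members were also short, with a median length of 1559.5 bases against 3075 bases for all genes tested. In the 4546 genes no longer than the median member the median day 4 change was 0.43, against -0.02 in longer genes. Within the members these medians were 0.65 and 0.74. All 4 day 4 libraries lay above all 4 of day 0 in 38 of the 82 members (46.3%), against 12.6% of all genes tested and 29.4% of genes with at least 20 FPKM. In both batches alone the member median was close to the joint value, 0.65 in batch 1 and 0.66 in batch 2. All genes had 0.18 and 0.13 in the same order, and genes with at least 20 FPKM 0.64 and 0.43. In batch 1 the members were thus near other abundant genes. Above 0 in both batches were 65 members, a count not taken for other genes. With median-of-ratios scaling in place of FPKM the shift was smaller: 58 of 82 members were above 0, against 42% of all genes and 53.9% of those with at least 20 FPKM, with a median of 0.20 against -0.17 for all genes and 0.08 for genes of at least 20 FPKM, and 1 member was called.

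Markers of several other cell types were lower at day 4, and those of 2 types held calls. The 8 bipolar cell markers summed to 43.8 to 377 FPKM at day 0, 13.7 to 97.6 FPKM at day 2, 0.213 to 48.2 FPKM at day 4 and 59.2 to 339 FPKM at day 7, and 3 were called lower at day 4. The 7 Mueller glia markers summed to 147 to 1442 FPKM at day 0, 72.5 to 105 FPKM at day 2, 46.2 to 64.8 FPKM at day 4 and 125 to 556 FPKM at day 7, and 1 was called lower at day 4. In single libraries Vsx1 of the first list was at 0 in 8 of 16 and Aqp4 of the second in 6 of 16. With these lists as a covariate no member was called, nor any other gene, and the member median was 0.47 against 0.33 for all genes. All 8 rod markers were below their day 0 mean at day 4, and so were both tested endothelial and pericyte markers. The rod markers had a median difference of -0.56, with 0 called and 1 lower at an unadjusted p under 0.05 (limma). With the rod list as a covariate 12 members were called, 9 of them also called without it. The member median was then 0.75, against 0.20 for all genes. The 5 markers of dividing cells summed to 0.171 to 1.26 FPKM at day 0, 127 to 248 FPKM at day 2, 40.4 to 243 FPKM at day 4 and 16.7 to 113 FPKM at day 7, and 3 of the 5 were called higher at day 4. The part of these cells in the member changes was not tested.

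**Figure D3:**
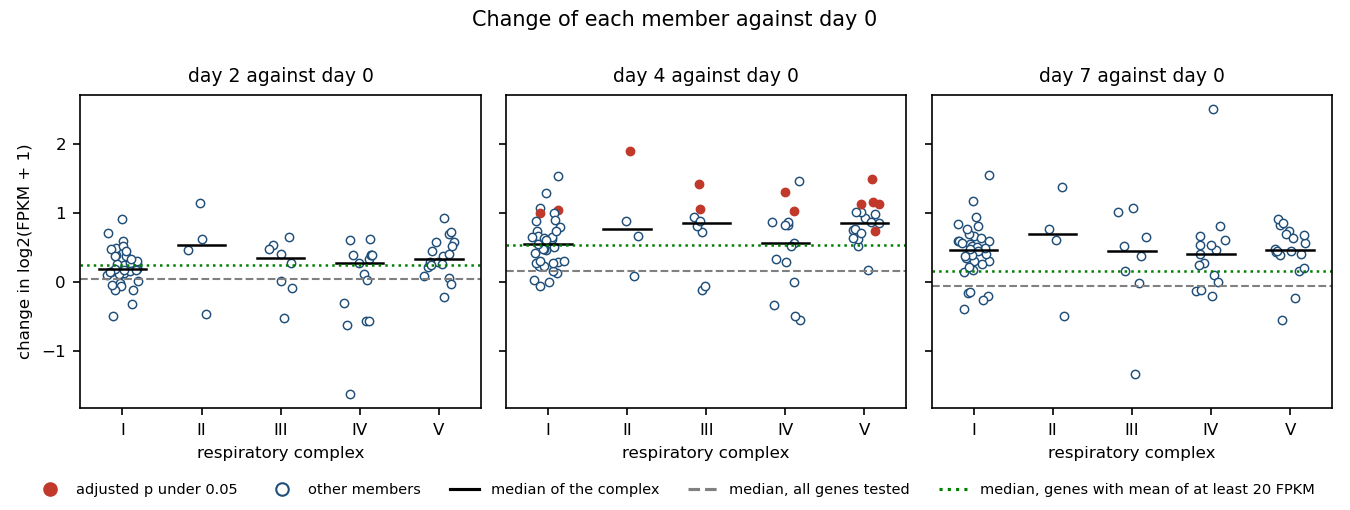
Change of each tested member in log2(FPKM + 1) against day 0, at days 2, 4 and 7, by complex. Filled red points passed an adjusted p of 0.05, black bars are medians of a complex, and the dashed and dotted lines are medians of all genes tested and of those whose mean reached 20 FPKM. The 12 calls are all at day 4, where every complex median lies above the all-gene median of 0.16.

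Complex V, the ATP synthase, had the most calls, 5 of 18 rows, against 4.62% of all genes and 14.7% of those with at least 20 FPKM. Its median change was 0.86 at day 4. All 18 changes were above 0, or 17 of 18 with median-of-ratios scaling. In 13 of the 18 rows all day 4 libraries lay above all of day 0, against 12.6% of all genes and 29.4% of those with at least 20 FPKM. The called names were Atp5g1, Atp5g3, Atp5j and Atp5o. Atp5g1, Atp5g2 and Atp5g3 all encode the c subunit of the proton-conducting ring and differ in the import sequence that is cut off.

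Atp5g1 (chromosome 11, 96068852 to 96075670, minus strand, GRCm38) was at 16.2, 16.0, 11.3 and 13.0 FPKM at day 0 and at 25.7, 25.3, 17.8 and 18.1 FPKM at day 2. At day 4 it was at 38.8, 48.1, 42.2 and 37.1 FPKM, and at day 7 at 18.0, 18.3, 15.5 and 24.8 FPKM. The day 4 libraries stood above all 12 others. From day 0 to day 4 Atp5g1 rose by 1.5 ± 0.25 in log2(FPKM + 1) (SE, limma, adjusted p = 0.00511). It fell by 1.09 ± 0.25 from day 4 to day 7 (SE, limma, adjusted p = 0.0413), a call that was lost in 12 of the 16 fits that each left out 1 library. Gm10039, a processed pseudogene 99.76% identical to Atp5g1 over the aligned bases, held 82.1 ± 9.63 FPKM at day 0 and 255 ± 18.3 FPKM at day 4 (SD, n = 4). The reads of the 2 near-identical genes of Atp5g1, of which Gm10039 held the most, amounted to 56.9% of its own. Reads that fit more than 1 of these genes make the level of each uncertain.

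Of the other 2 c-subunit genes 1 passed the test. Atp5g3 (chromosome 2, 73908447 to 73911326, minus strand) was at 106, 117, 106 and 45.4 FPKM at day 0 and at 195, 212, 175 and 208 FPKM at day 4. These groups did not overlap, and Atp5g3 rose by 1.15 ± 0.32 (SE, limma, adjusted p = 0.0485), a call that was lost in 14 of the 16 fits that each left out 1 library. Atp5g2 was at 24.7, 19.4, 25.02 and 32.0 FPKM at day 0 and at 50.03, 61.1, 58.0 and 38.7 FPKM at day 4, a difference of 1.01 ± 0.32 that missed the threshold (SE, limma, adjusted p = 0.0812). Of the summed FPKM of the 3 genes, Atp5g3 held 68.4% ± 12.3 at day 0 and 67.9% ± 4.16 at day 4 (SD, n = 4). The part of Atp5g1 was 10.96% ± 2.66 at day 0, 14.3% ± 1.07 at day 4 and 8.48% ± 1.62 at day 7 (SD, n = 4). Near-identical copies of Atp5g2 held 187% as many reads as the gene itself.

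The stalk of the ATP synthase holds the catalytic head still against the turning ring. Atp5o encodes its oligomycin-sensitivity protein and Atp5j its coupling factor. The first row of Atp5o (ENSMUSG00000022956.11, chromosome 16, 91925214 to 91931687, minus strand) was at 30.8, 38.9, 17.0 and 21.1 FPKM at day 0 and at 56.8, 65.7, 58.7 and 50.3 FPKM at day 4. The groups did not overlap, and the row rose by 1.14 ± 0.26 (SE, limma, adjusted p = 0.021). The second row (ENSMUSG00000116933.1) shares exons with the first on the same strand, so its rise of 1.12 ± 0.23 (SE, limma, adjusted p = 0.0124) is not a separate result. Atp5j (chromosome 16, 84827866 to 84835625, minus strand) was at 72.2, 83.6, 63.5 and 84.5 FPKM at day 0 and at 131, 132, 122 and 123 FPKM at day 4. It had the smallest change of the called members, 0.74 ± 0.19 (SE, limma, adjusted p = 0.0384), and both groups were narrow and did not overlap. The call of Atp5j was lost in 10 of the 16 fits without 1 library, and its change was 0.27 under the alternative that lowered it most. Exons of Atp5j overlap Gabpa on the opposite strand over 12.7% of their bases, and the library kit does not mark strand.

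The catalytic head did not pass the test. Atp5b was at 389, 258, 206 and 338 FPKM at day 0 and at 481, 528, 444 and 359 FPKM at day 4, with 1 day 4 library inside the range of day 0. Its difference was 0.63 ± 0.21 (SE, limma, adjusted p = 0.095). Atp5a1, the α subunit, was at 206 ± 26.4 FPKM at day 0 and 235 ± 54.9 FPKM at day 4 (SD, n = 4), a difference of 0.17 that turned to -0.29 with median-of-ratios scaling. Atp5k, subunit e of the membrane part, had a difference of 0.85 ± 0.35 (SE, limma, adjusted p = 0.171).

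The members called at day 4 were searched for 4 motifs of factors known to act on respiratory genes, in the 250 bases before and 50 after the RefSeq gene start (GRCm38.p6), on both strands. The motifs were GCGC, any base, T and again GCGC for NRF1, CCGGAAG for GABP, TCAAGGTCA for ERR and AAGATGGCG for YY1, and no GABP and YY1 matches overlapped. A promoter was at hand for 68 of the 85 names. NRF1 matched in 17 of the 68 (25%), against 5.19% of 27025 genes, and GABP in 17 (25%), against 9.93%. YY1 matched in 7 (10.3%), against 1.64%, and ERR in 2 (2.94%), against 0.466%. The 27025 genes were not limited to those tested here, so the shares are not matched for level. These are matches of letters, not sites in use. The windows below show each match in the 9 called names with a promoter, with the match in capitals on the strand of the gene (ERR as its reverse complement):
Atp5g3, NRF1, chr2:73911295-73911324: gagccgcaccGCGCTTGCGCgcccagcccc
Atp5g3, ERR, chr2:73911360-73911389: ttgttacaaagTGACCTTGAgcgtcttccc
Atp5j, GABP, chr16:84835020-84835049: tagctgagggacCCGGAAGcacttaccctc
Atp5j, YY1, chr16:84835046-84835075: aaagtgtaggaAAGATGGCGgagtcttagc
Atp5o, NRF1, chr16:91931602-91931631: gctggcgcgcGCGCGTGCGCtctggcgcca
Ndufa8, NRF1, chr2:36049349-36049378: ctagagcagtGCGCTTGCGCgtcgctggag
Sdhb, GABP, chr4:140961265-140961294: ggctcggagaaaCCGGAAGcggccttccac
Sdhb lies on the plus strand and the others on the minus strand. The letters of the 4 motifs were in none of the windows of the other 4 genes, Atp5g1, Cox5a, Cox7b and Ndufv2.

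The upstream stretches of a pair of genes with the same mature product are shown for comparison, with Atp5g3 carrying the ERR letters in capitals and Atp5g1, the member with the lowest adjusted p, none of the 4 motifs:
Atp5g3, chr2:73911327-73911476, minus strand: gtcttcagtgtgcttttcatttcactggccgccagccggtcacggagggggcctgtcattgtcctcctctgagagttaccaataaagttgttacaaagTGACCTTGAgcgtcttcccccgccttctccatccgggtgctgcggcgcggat
Atp5g1, chr11:96075671-96075781, minus strand: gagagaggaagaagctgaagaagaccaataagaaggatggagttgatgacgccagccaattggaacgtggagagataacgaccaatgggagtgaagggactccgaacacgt
The median day 4 change was 0.66 in the 17 tested members with the NRF1 letters and 0.74 in the 49 without. For GABP these medians were 0.76 in 17 and 0.63 in 49, and for YY1 0.65 in 7 and 0.67 in 59.

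Complex III had 2 calls among 8 members (25%) and a median change of 0.85 at day 4. Of all genes tested 4.62% were called higher, and of those with at least 20 FPKM 14.7%. Uqcrq, a small subunit near the ubiquinone site (chromosome 11, 53427922 to 53430831, minus strand), was at 56.5, 56.0, 38.3 and 35.5 FPKM at day 0. At day 4 it was at 126, 119.6, 119.7 and 129.7 FPKM. The day 4 libraries lay far above those of days 0 and 2 and close together, and Uqcrq rose by 1.42 ± 0.30 (SE, limma, adjusted p = 0.0153). Day 7 was split, with 65.3, 66.7, 93.3 and 184 FPKM.

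Uqcrb (chromosome 13, 66900617 to 66905378, minus strand) was at 216, 239.8, 137 and 107 FPKM at day 0 and at 338, 311, 398 and 344 FPKM at day 4. It rose by 1.06 ± 0.25 (SE, limma, adjusted p = 0.0275), by 0.51 within batch 1 and 1.603 within batch 2. The pseudogene Gm2962, 98.22% identical where it aligns, moved from 70.9 ± 26.5 to 129 ± 19.98 FPKM (SD, n = 4). Of the members that did not pass the test, Uqcr11 had a difference of 0.94, Uqcrfs1, the Rieske iron-sulfur protein, of 0.88 and Uqcrc1, a core protein, of 0.73 (limma, adjusted p from 0.0555 to 0.115). Uqcrh, the acidic hinge protein that docks cytochrome c, had 122 ± 17.4 FPKM at day 0 and 117 ± 39.8 FPKM at day 4 (SD, n = 4). Uqcrc2 had a difference of -0.05 ± 0.92 (SE), and in day 7 replicate 4 it was at 0.119 FPKM against 33.3 to 72.2 FPKM in the other day 7 libraries.

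Complex II had 1 call among 4 members (25%), against 4.62% of all genes and 14.7% of those with at least 20 FPKM. The change of this member was the largest among the called members. Sdhb, the iron-sulfur subunit of succinate dehydrogenase (chromosome 4, 140961203 to 140979193, plus strand), was at 54.1, 42.9, 18.2 and 72.4 FPKM at day 0. It was at 116, 129, 88.3 and 59.6 FPKM at day 2 and at 138, 186, 185 and 139 FPKM at day 4. All 4 day 4 libraries lay above all of days 0 and 2, and Sdhb rose by 1.91 ± 0.40 (SE, limma, adjusted p = 0.0142). Day 7 reached from 68.2 to 179 FPKM and overlapped day 0. Sdha, the flavoprotein that oxidises succinate, was not called: it was at 106 ± 38.0 FPKM at day 0 and 107 ± 7.12 FPKM at day 4 (SD, n = 4). The anchors Sdhc and Sdhd had differences of 0.88 ± 0.32 and 0.66 ± 0.22 (SE, limma, adjusted p = 0.128 and 0.0897). The difference between Sdhb and its partners was not tested.

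**Figure D4:**
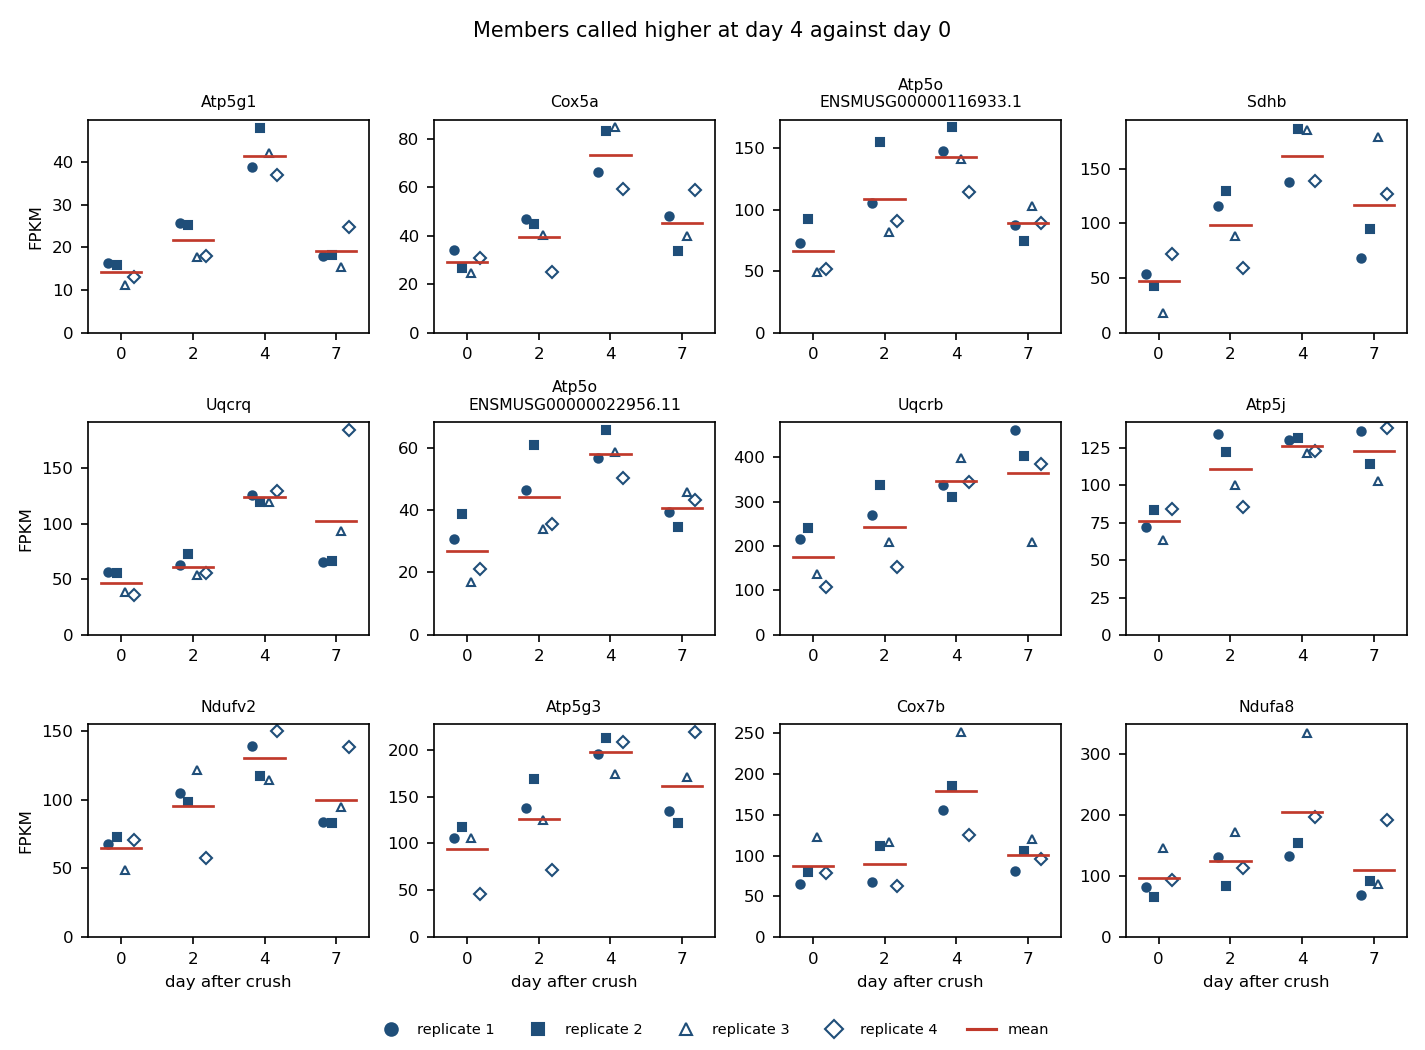
FPKM (vertical axes from 0) of the 12 called rows against the day after crush, ordered by adjusted p, with 1 point per library and the mean of 4 in red. Day 4 lies above day 0 without overlap in every panel except Ndufa8, where day 4 replicate 1 at 133 FPKM lies under day 0 replicate 3 at 145 FPKM. Uqcrq, Ndufv2 and Ndufa8 show day 7 replicate 4 above the other day 7 libraries.

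Complex IV had 2 calls among 15 tested members (13.3%) and a median change of 0.56. The shares called higher were 4.62% of all genes and 14.7% of those with at least 20 FPKM. Cox5a, a subunit of the matrix side (chromosome 9, 57521274 to 57532426, plus strand), was at 34.1, 26.7, 24.6 and 30.8 FPKM at day 0 and at 66.4, 83.4, 84.8 and 59.2 FPKM at day 4. The groups were clear of each other, and Cox5a rose by 1.302 ± 0.27 (SE, limma, adjusted p = 0.012), by 1.27 and 1.33 within the batches. The antisense gene Gm26631 overlaps 12.8% of the Cox5a exon bases and went from 17.3 ± 2.06 to 44.2 ± 6.67 FPKM (SD, n = 4), and their reads cannot be told apart there. Cox7b, a small membrane subunit on chromosome X (106015700 to 106022450, plus strand), was at 65.5, 79.6, 123 and 79.1 FPKM at day 0 and at 156, 186, 251 and 125 FPKM at day 4. The lowest day 4 library was just above the highest of day 0, and the rise was 1.03 ± 0.29 (SE, limma, adjusted p = 0.0495). The call of Cox7b was lost in 12 of the 16 fits that each left out 1 library.

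The most abundant subunit of complex IV was not called. Cox8a was at 464 ± 36.4 FPKM at day 0 and 565 ± 30.5 FPKM at day 4 (SD, n = 4), a difference of 0.29 that turned to -0.18 with median-of-ratios scaling. The differences were 0.53 for Cox4i1, 0.56 for Cox6a1, 0.82 for Cox5b and 0.87 for Cox7a2, all short of the threshold (limma, adjusted p from 0.127 to 0.309). Cox7a2l, a factor that joins complexes III and IV, had a difference of -0.33 ± 0.35 (SE).

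Complex IV also held a called member whose mean was highest at day 7, as it was in 25 of the 82 tested members. Cox6a2, the heart and muscle form of COX6A (chromosome 7, 128205435 to 128206387, minus strand), was at 1.38, 5.42, 7.04 and 12.1 FPKM at day 0 and at 2.21, 3.22, 12.5 and 0.523 FPKM at day 2. It was at 10.4, 35.3, 19.0 and 10.3 FPKM at day 4 and at 42.0, 35.8, 31.1 and 32.5 FPKM at day 7. The day 7 libraries stood above all of days 0 and 2 and overlapped only the highest of day 4. Cox6a2 was 1 of 2 members called by the F test over the 4 days (limma, adjusted p = 0.0371), with Atp5g1 (adjusted p = 0.0198), against 2.89% of all genes tested. Its day 7 difference of 2.51 ± 0.64 against day 0 was not called (SE, limma, adjusted p = 0.129). Nor was its difference of 1.05 ± 0.64 from day 4 to day 7 (SE, limma, adjusted p = 0.447). The F test call was lost in 12 of the 16 fits that each left out 1 library. The widespread form Cox6a1 was at 246, 180.5, 315 and 632 FPKM at day 7, so Cox6a2 held 11.2% ± 5.31 of the summed FPKM of the pair, against 2.15% ± 1.6 at day 0 (SD, n = 4). Itgad, which overlaps Cox6a2 on the opposite strand, did not exceed 0.576 FPKM in any library.

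Cox4i2, a form of COX4 known from lung and from low oxygen, followed single libraries. It was at 52.9, 7.86, 4.12 and 0 FPKM at day 0 and at 26.6, 9.71, 2.78 and 0.258 FPKM at day 7, and at most 11.004 FPKM at days 2 and 4. The high library of day 0 was also the highest in the 6 endothelial and pericyte markers, which summed to 0.109 to 371 FPKM at day 0, 0.123 to 8.004 FPKM at day 2, 0.194 to 6.60 FPKM at day 4 and 0.408 to 30.9 FPKM at day 7. The pericyte marker Rgs5 was at 0 in 8 of 16 libraries, at 62.6 FPKM in day 0 replicate 1 and at 0.0227 FPKM in day 7 replicate 1. The part of such cells in Cox4i2 was not tested.

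**Figure D5:**
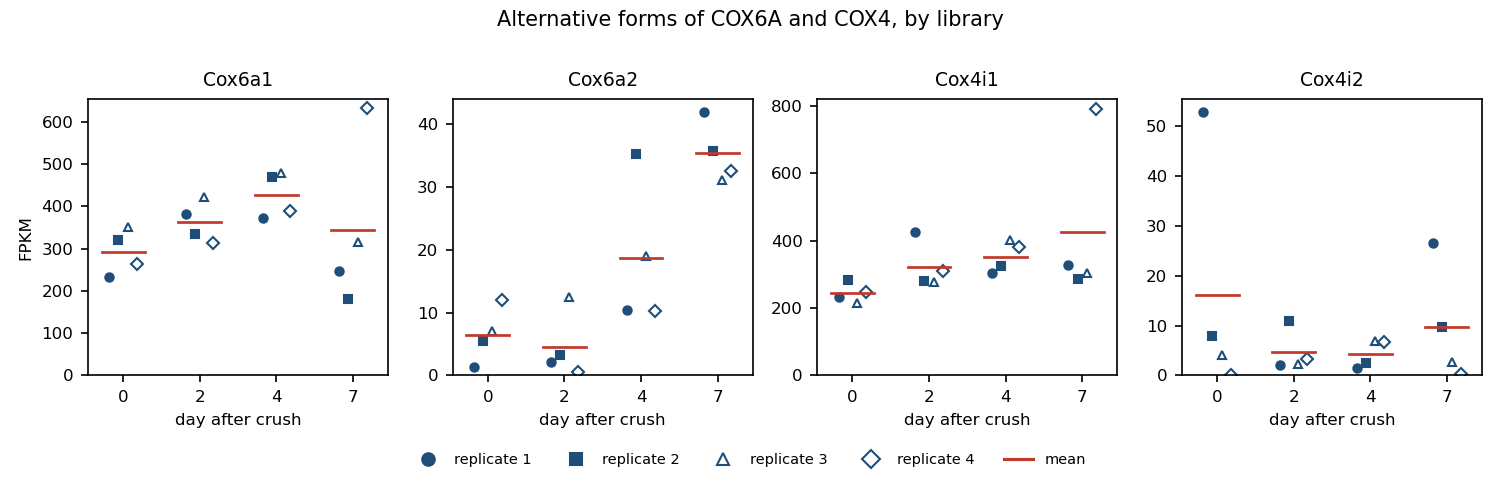
FPKM (axes from 0, a scale for each panel) of the widespread and alternative forms of COX6A and COX4 against the day after crush, with 1 point per library and the mean of 4 in red. The 4 day 7 libraries of Cox6a2 lie between 31.1 and 42.0 FPKM, above all of days 0 and 2, while Cox4i2 is high in 1 library each of days 0 and 7.

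Complex I, the largest complex, had 2 calls among 37 tested members (5.41%). Among all genes tested 4.62% were called higher, and among those with at least 20 FPKM 14.7%. The median change of complex I was 0.55, against 0.16 for all genes and 0.54 for those with at least 20 FPKM. Of its 37 changes 35 were above 0 (94.6%), against 56% and 75.2%. With median-of-ratios scaling 23 were above 0 (62.2%), against 42% and 53.9%. Ndufv2, an iron-sulfur subunit of the part that oxidises NADH (chromosome 17, 66078638 to 66101559, minus strand), was at 67.7, 73.1, 49.0 and 70.6 FPKM at day 0 and at 139, 118, 114 and 150.03 FPKM at day 4. It rose by 0.997 ± 0.26 (SE, limma, adjusted p = 0.042) with no overlap of the groups. Ndufa8, an accessory subunit (chromosome 2, 36036326 to 36049406, minus strand), was at 81.8, 65.2, 145 and 92.8 FPKM at day 0 and at 133, 153, 335 and 196 FPKM at day 4. It rose by 1.05 ± 0.29 (SE, limma, adjusted p = 0.0497), in 3 of 4 libraries above all of day 0. Both calls were lost in 13 of the 16 fits that each left out 1 library.

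Unlike Ndufv2, the core subunits Ndufs1, Ndufs7 and Ndufv1 were not called. Ndufs1, the largest iron-sulfur subunit, was at 10.5 ± 6.12 FPKM at day 0 and 10.7 ± 4.73 FPKM at day 4 (SD, n = 4), with 1.72 FPKM in day 0 replicate 2. Ndufs7, which holds the last iron-sulfur cluster, had a difference of 0.15 ± 0.28 (SE). Ndufv1, which binds NADH and flavin, had a difference of 0.88 ± 0.57 (SE), of -0.17 within batch 1 and 1.93 within batch 2, a batch difference that missed the threshold (limma interaction, adjusted p = 0.467). Ndufa1 was at 243, 388, 315 and 281 FPKM at day 0 and at 692, 516, 542 and 317 FPKM at day 2. It was at 352 to 382 FPKM at day 4 and at 438, 566, 474 and 982 FPKM at day 7, the last group above all of day 0, and its day 7 difference of 0.94 ± 0.27 was not called (SE, limma, adjusted p = 0.194). Ndufa4 had a difference of 0.57 ± 0.29 at day 4 (SE, limma, adjusted p = 0.287). The day 4 differences of complex I ran from -0.06 to 1.54.

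At day 2 no member was called against day 0, against 0.311% of all genes tested (limma, lowest adjusted p of a member 0.291). At an unadjusted p under 0.05, 9 members were higher and 1 lower, against 5.3% and 4.43% of all genes. Of the 3137 genes with at least 20 FPKM, 381 were higher and 79 lower at that p. The change was above 0 in 65 of 82 members, against 52.6% of all genes and 69.9% of those with at least 20 FPKM. The median change was 0.26 for the members, 0.04 for all genes and 0.24 for genes with at least 20 FPKM. It was 0.19 for genes no longer than the median member. That of the members was 0.44 in batch 1 and 0.11 in batch 2, 0.10 with median-of-ratios scaling, 0.15 with TPM and 0.57 without both F libraries. The medians of all genes were -0.16, 0.10, -0.07, -0.045 and -0.11 in the same order. All 4 libraries lay above day 0 in 4 of 82 members, against 3.37% of all genes and 6.44% of those with at least 20 FPKM. From day 2 to day 4, between mice of the same age, no member was called either, against 0.453% of all genes (limma, lowest adjusted p 0.132), with 20 higher and 0 lower at an unadjusted p under 0.05, against 8.68% and 2.76% of all genes. Of the 3137 genes with at least 20 FPKM, 562 were higher and 107 lower at that p. The change was above 0 in 73 members, against 58.6% of all genes and 69% of those with at least 20 FPKM. The median was 0.43 for the members, 0.16 for all genes and 0.29 for genes with at least 20 FPKM. That of the members was 0.13 with median-of-ratios scaling, 0.16 with the full title code as batch, 0.18 without both F libraries and 0.72 in batch 2 alone. The medians of all genes were -0.05, 0.07, 0.28 and 0.01 in the same order. All 4 day 4 libraries lay above day 2 in 17 members (20.7%), against 7.83% of all genes and 17.8% of those with at least 20 FPKM.

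At day 7 no member was called against day 0, against 0.406% of all genes tested (limma, lowest adjusted p 0.11, for Uqcrb), with 22 higher and 0 lower at an unadjusted p under 0.05, against 5.49% and 6.66% of all genes. Of the 3137 genes with at least 20 FPKM, 466 were higher and 233 lower at that p. The change was above 0 in 68 members, against 46.3% of all genes and 60.5% of those with at least 20 FPKM. The median change was 0.47, against -0.07 for all genes and 0.16 for genes with at least 20 FPKM. It was 0.15 for genes no longer than the median member. That of the members was 0.16 with TPM, 0.27 with the full title code as batch, 0.16 in batch 1 and 0.67 in batch 2, which holds day 7 replicate 4. The medians of all genes were -0.28, 0.06, -0.20 and 0.05 in the same order. All 4 libraries lay above day 0 in 14 members (17.1%), against 2.51% of all genes and 5.71% of genes with at least 20 FPKM. From day 4 to day 7, Atp5g1 was the 1 member called lower, against 1.5% of all genes, and no member was called higher, against 0.128%. At an unadjusted p under 0.05, 11 members were lower and 1 higher, against 12.7% and 3.61% of all genes. Of the 3137 genes with at least 20 FPKM, 816 were lower and 176 higher at that p. The change was above 0 in 21 members (25.6%), against 37.5% of all genes and 27.2% of those with at least 20 FPKM. The median change was -0.23 for the members, -0.25 for all genes and -0.41 for genes with at least 20 FPKM. With TPM it was -0.50 for the members and -0.43 for all genes. With median-of-ratios scaling it turned to 0.22 for the members and 0.05 for all genes. All 4 day 7 libraries lay below all of day 4 in 7 of 82 members, against 8.66% of all genes. No member was called for a difference of its change between batches (limma interaction, lowest adjusted p 0.24), and 0.00676% to 0.0676% of all genes were.

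Genes that work next to the complexes were followed in 5 lists. Of the 15 electron and nucleotide carriers, 5 rose at day 4 and 0 fell, against 4.62% of all genes called higher and 14.7% of those with at least 20 FPKM. The median change was 0.70, against 0.16 and 0.54. Of the 15 changes 11 were above 0, and they ran from -0.66 to 1.70. At an unadjusted p under 0.05, 8 were higher and 1 lower, so the list did not move as a whole. Slc25a5, which exchanges ADP for ATP across the inner membrane, rose by 1.37 ± 0.22 (SE, limma, adjusted p = 0.00386), and Cycs, cytochrome c, by 1.70 ± 0.30 (SE, limma, adjusted p = 0.0063). Vdac3 and Vdac2, channels of the outer membrane, rose by 1.16 and 1.001 (limma, adjusted p = 0.0238 and 0.0351), and Etfb, the β subunit of the electron transfer flavoprotein, by 1.46 (limma, adjusted p = 0.0319). Each of the 5 was higher in 4 of 4 day 4 libraries than in any of day 0. Vdac2, the last of the 5 by the F test, was named after its values were seen. Cyc1 had a difference of 0.70 ± 0.27 and was not called (SE, limma, adjusted p = 0.142).

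The other lists had no calls at day 4: 0 of 15 assembly factors of complex I, 0 of 32 of complexes II to V, 0 of 16 enzymes of the tricarboxylic acid cycle and 0 of 12 regulators of mitochondrial biogenesis (limma). At an unadjusted p under 0.05 these held 2, 5, 2 and 0 higher and 0, 0, 0 and 2 lower genes, against 15.1% higher and 5.79% lower of all genes tested. Their median changes were 0.59, 0.28, 0.41 and 0.09. Ppargc1a, the coactivator PGC-1α, had a difference of -1.45 ± 0.54 (SE, limma, adjusted p = 0.133). None of the 5 lists had a call at day 2 or 7 against day 0.

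Many members share reads with other genes. By alignment of the annotated transcripts, 35 of the 86 rows have another gene at least 98% identical over at least 100 bases, and in 30 the reads of such genes exceed 10% of the member's own. Of the called members, Sdhb, Uqcrq, Ndufv2, Atp5g3, Cox7b and Ndufa8 have none. With the reads of near-identical pseudogenes added to each member, a step chosen after seeing the data, the same 12 rows were called. Of these rows only Atp5g1 and Uqcrb have such a pseudogene. The step left the values of the other called rows unchanged, so it says nothing about reads they share with other genes. The counterpart from mitochondrial DNA could not be read: 7 nuclear genes near-identical to mitochondrial protein genes held 7.33% ± 4.79 of reads at day 0, 7.71% ± 5.26 at day 2, 4.395% ± 1.35 at day 4 and 11.4% ± 4.26 at day 7 (SD, n = 4), and how far mitochondrial transcripts fed them was not tested.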

How the data were processed

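RNA of EGFP-positive retinal cells was sequenced after cDNA amplification in libraries of the Nextera XT type, without strand marks, per the labels' protocols. The authors deposited FPKM for 55385 genes, and the submitters' processing notes name STAR 2.7.2b, featureCounts 1.6.1 and the builds GRCm38.p6 and mm10. For reads with several places, the handling was not stated in what was used here. FPKM times gene length came in even steps, and reading a step as 0.01 read gave totals of 8647276 to 15708302 reads per library. Of the values above 0, 46.9 to 63.4% were whole reads (tolerance 0.02 of a step), so the values were tested as FPKM and not as counts. Read-based limits cover counting error only, since amplified reads are not independent molecules.

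Groups and replicate numbers came from the sample titles. The first digits of the code in the titles put replicates 1 and 2 in batch 1 and replicates 3 and 4 in batch 2; what the code records is not stated. The 14795 genes that reached 1 FPKM in 4 or more libraries were fitted on log2(FPKM + 1) in limma 3.58.1 (R 4.3.3; lmFit, then eBayes with its trend option), with a mean per day and the batch. On this scale the change of a low gene is understated. All tests were two-sided and used Benjamini-Hochberg adjustment over all genes tested and a threshold of 0.05, for 5 comparisons, an F test and an interaction of day and batch. The fit was tested on simulated data. Transcripts were compared with BLAST 2.17.0 in GENCODE release M21, which holds 54487 of the table's gene IDs. Alternatives were other pseudocounts, filters, scalings, batch terms, variance models, covariates and left-out libraries.

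The text names members called in any comparison, core and alternative subunits of each complex, the highest and lowest member of each complex, and called genes of the related lists. A single member is counted with the others but not reported here by name. The members, the lists and this rule were chosen with earlier results of these data known.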

Additional observations from a re-analysis of the deposited data

Results flagged for a closer look

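One value stood far from the others of its group. Atp5g3, a c-subunit gene of the ATP synthase, was at 45.4 FPKM in day 0 replicate 4, against 106, 106 and 117 FPKM in the other day 0 libraries. The gap to the nearest library was 0.835 of the range of the group, above Dixon's limit for 4 samples. Without that library the day 4 change of Atp5g3 was 0.85 and was not called (limma). In all, 56 groups were examined, and chance flags about 1 in 20 groups, so a single flag carries no pattern. In 39 contrasts of the called rows, none had every library of one batch on one side of day 0 and every library of the other batch on the opposite side.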

How the results depend on the processing

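All calls of members at day 4 against day 0 were higher under every alternative, but their number moved from the 12 reported. It was 2 without a filter on low values, 1 with median-of-ratios scaling, 6 with scaling to protein-coding genes, 7 without a batch term, 1 with the full title code as batch, 6 without a variance trend and 26 with array weights. It was 1 in batch 1 alone and 0 in batch 2 alone or with a bipolar and Mueller glia covariate, and in the last pair of fits no other gene was called at day 4. A rod covariate gave 12, of which 9 were among those reported. Leaving out 1 library each gave 2 (without day 4 replicate 2) to 20 (without day 7 replicate 4). Further libraries were left out after seeing the data: 19 members were called without day 7 replicate 4 and day 2 replicate 4, and 5 without day 0 replicate 1 and day 7 replicate 1. Atp5g1 was called in all 16 fits that left out 1 library, Sdhb, Cox5a and Uqcrq in 15 each, and the changes of the 12 rows stayed above 0 in all alternatives. The causes were not tested.

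The 1 call from day 4 to day 7 became 0 without a filter, with median-of-ratios or protein-coding scaling, without batch, with the full title code, without a trend, in either batch alone, without both F libraries, with either covariate and without day 0 replicate 1 and day 7 replicate 1. It became 2 with a filter at 5 FPKM or without day 7 replicate 4 and day 2 replicate 4, 4 with TPM and 6 with array weights, and ranged from 0 to 2 over left-out libraries. The 2 members of the F test became 0 without a filter, with the full title code, in either batch or with the bipolar and Mueller glia covariate. They became 1 with a pseudocount of 0.1, with median-of-ratios scaling, without a trend and without day 0 replicate 1 and day 7 replicate 1. They became 4 with a rod covariate, 5 without day 7 replicate 4 and day 2 replicate 4, 6 with a pseudocount of 5, 7 with the stricter filter and 11 with array weights, and ranged from 0 to 4 over left-out libraries. The 5 calls in the related lists became 0 in either batch or with the bipolar and Mueller glia covariate, 2 without a filter, with the full title code or without day 0 replicate 1 and day 7 replicate 1, 3 without a trend, 8 with the stricter filter or TPM and 17 with array weights, and ranged from 2 to 6 over left-out libraries. Interaction calls ranged from 0 to 2 over left-out libraries.

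With the replicate number as a block (the paired fit), 7 members were called at day 4 against day 0 and 0 from day 4 to day 7. The numbers did not pair the samples: same-numbered libraries correlated above 0.1 in 5 of 24 pairs, with r from -0.06 to 0.23, and 6 of 16 libraries correlated best with their own number. Depth limits the low rows most, since 3 reads in a gene of 1 kb stand for 0.191 to 0.347 FPKM and 4 members were too low to test.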
